A study of Mus musculus with 4 samples.

Results

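The genes examined here encode enzymes that remove or prevent RNA-DNA hybrids: the ribonuclease H gene *Rnaseh1*, the 3 subunit genes of ribonuclease H2 (*Rnaseh2a*, *Rnaseh2b* and *Rnaseh2c*), the helicase genes *Aqr*, *Dhx9* and *Ddx5*, the topoisomerase gene *Top1* and the SUMO protease gene *Senp1*. They were found by an exact match to the gene symbol in the files, which gave all 9 of 9 genes among 53379. All 9 were also among the 19148 genes that passed the filter on low counts, and their expected counts ran from 571 to 27004 per library.

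RNA was sequenced from mouse embryonic stem cells (mESCs) that lack telomerase RNA, at population doubling 100 (PD100, pre-ALT cells) and 800 (PD800, post-ALT cells), with 2 libraries in each group. ALT is the alternative lengthening of telomeres. Both groups were Terc-/- cells of the line DKO741, made from E14 mESCs by targeting both alleles of the telomerase RNA gene, so that genotype and line were shared and the groups differed in time in culture. The labels speak both of population doublings and of passages 100 and 800. DKO741 is 1 line, so the p-values measure the spread between libraries of that line, and time in culture and ALT status cannot be told apart. The cells were kept on mouse embryonic fibroblast feeders for maintenance and were grown without feeders for RNA extraction.

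An R-loop is a hybrid of RNA and DNA with the other DNA strand displaced, and it forms where a transcript anneals back to its template, including at telomeres, where the telomeric repeat-containing RNA (TERRA) is made. RNase H enzymes cut the RNA of such a hybrid, helicases unwind it, and topoisomerase I relaxes the negative supercoils that favour it. RNase H2 works as a complex of a catalytic A subunit with the B and C subunits, and also starts the removal of single ribonucleotides that DNA polymerases leave in the genome.

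*Rnaseh2a*, which encodes the catalytic subunit of RNase H2, was the gene of the 9 that fell from PD100 to PD800, by 1.83-fold (95% confidence interval 1.46 to 2.29, 2 libraries against 2). The other 8 genes, among them the B and C subunits of the same enzyme, did not pass the test. Their 95% intervals in this fit to counts allowed changes of at most 1.37-fold in either direction, a limit that does not cover other scales. The test was edgeR's quasi-likelihood test on the expected counts of all 19148 genes, and a gene passed at a Benjamini-Hochberg adjusted p under 0.01. By this test 0 of 9 genes were higher in PD800 cells, where 13.1% of all tested genes were higher, and 1 of 9 was lower, where 15.4% of all tested genes were lower. With a fold change over 2 in addition, 0 of 9 genes passed in either direction, against 6.28% higher and 8.81% lower among all tested genes. This 0 depended on the setting, since *Rnaseh2a* was at -1.18 in limma on log2(TPM + 1) and at -1.04 without PD100 replicate 1, past both limits. *Rnaseh2a* was also the 1 gene of the 9 with an unadjusted p under 0.05, and DESeq2's Wald test gave the same counts of 0 higher and 1 lower.

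The 4 libraries held 32454121 to 38492149 expected counts in total, an expected count being RSEM's estimate of the read pairs from a gene. Levels of 1 gene in different libraries are given as CPM, the counts scaled to a common library size with edgeR's TMM factors, and 3 counts, taken as the limit of detection, came to 0.0743 to 0.0934 CPM. This limit takes in counting error alone. The targeted gene, *Terc*, had 1 count in PD100 replicate 1 and 0 counts in the other 3 libraries. The log2 CPM values of replicates correlated across genes at 0.984 (PD100) and 0.992 (PD800), and those of libraries from different groups at 0.935 to 0.944. The PD100 replicates differed more from each other than the PD800 replicates did, with a chi-square per degree of freedom of 41.1 against 6.74. Mitochondrial genes took 15.4% and 11.0% of the counts at PD100 and 17.7% and 16.0% at PD800, and the fragment length that RSEM subtracted was 147 bases in PD100 replicate 2 against 161 to 169 bases in the other libraries. The part of these library differences in the lower *Rnaseh2a* level was not tested.

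The promoters of *Rnaseh2a* and *Rnaseh2c* are shown because these genes encode subunits of 1 enzyme and only the first passed the test. RefSeq promoters of GRCm38.p6 were matched for 7 of the 9 genes, and *Rnaseh1* and *Rnaseh2b* were not matched. Each sequence below holds the 250 bases before the RefSeq start, written 5′ to 3′ on the strand of the gene, with capitals marking a GC box (GGGCGG) or a CCAAT box (CCAAT), either of which may stand as its reverse complement. The *Rnaseh2a* window is chr8:84966077-84966326 on the minus strand and the *Rnaseh2c* window is chr19:5601623-5601872 on the plus strand. The first lies inside the annotated span of its gene, since some transcripts start farther out.
Rnaseh2a: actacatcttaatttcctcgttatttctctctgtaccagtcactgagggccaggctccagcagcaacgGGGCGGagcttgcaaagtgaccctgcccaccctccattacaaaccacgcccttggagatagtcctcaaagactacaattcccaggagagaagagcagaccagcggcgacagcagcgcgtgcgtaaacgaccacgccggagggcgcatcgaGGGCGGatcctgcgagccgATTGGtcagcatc
Rnaseh2c: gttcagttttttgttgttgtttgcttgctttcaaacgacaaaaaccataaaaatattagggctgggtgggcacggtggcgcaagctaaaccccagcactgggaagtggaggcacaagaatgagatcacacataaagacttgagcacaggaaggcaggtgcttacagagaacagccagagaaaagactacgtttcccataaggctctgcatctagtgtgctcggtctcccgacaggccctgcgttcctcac
The *Rnaseh2a* window held 2 GC boxes and 1 CCAAT box, none of which overlap, and 57.6% of its bases were G or C. The *Rnaseh2c* window held neither motif, and 49.2% of its bases were G or C. Of 32851 RefSeq promoter windows of the same length, 32.7% held a GC box and 33.8% a CCAAT box. Genes of the 9 that did not pass the test held them too: *Dhx9* had 2 GC boxes, *Top1* had 3, and *Aqr* had 1 CCAAT box. Of the 3 windows of *Ddx5*, 1 held a CCAAT box and 1 held GC boxes, and the 2 windows of *Senp1* held neither. The median window was 52.4% G or C.

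*Rnaseh2a* (ENSMUSG00000052926.16) lies on chromosome 8 of GRCm38 from 84956610 to 84969767 on the minus strand. It was measured at 68.1 and 87.9 CPM in PD100 replicates 1 and 2, and at 40.9 and 44.3 CPM in PD800 replicates 1 and 2. Both PD100 libraries lay above both PD800 libraries, although the PD100 replicates stood well apart from each other. The group means were 78.0 ± 14.0 CPM (SD, n = 2) at PD100 and 42.6 ± 2.40 CPM (SD, n = 2) at PD800. The log2 fold change of the counts was -0.87 ± 0.13 (SE), with an adjusted p of 0.0033 by edgeR's quasi-likelihood test. Of all tested genes, 25.7% had a larger absolute log2 fold change and 14.1% a lower one. With 1 library left out, the lone library of its group was assumed to vary like the pair of the other group. The edgeR adjusted p was then 0.0204 without PD800 replicate 1 (log2 fold change -0.82) and 0.0114 without PD800 replicate 2 (-0.93), where the spread came from the PD100 pair, which differed more. It was 2.48e-07 without PD100 replicate 1 (-1.04) and 6.47e-06 without PD100 replicate 2 (-0.70), where the spread came from the PD800 pair.

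In TPM, which is also scaled for transcript length, *Rnaseh2a* was at 85.9 and 85.5 in the PD100 replicates and at 38.4 and 36.1 in the PD800 replicates. On this scale the PD100 replicates lay close together, and the ratio of the group means was 2.30. The transcript length that RSEM weighted by abundance, 784 and 871 bases at PD100 and 848 and 907 bases at PD800, overlapped between groups.

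*Rnaseh2b*, the gene of the B subunit, was measured at 30.4 and 33.3 CPM in the PD100 libraries and at 35.5 and 35.1 CPM in the PD800 libraries. The groups did not overlap, but the log2 fold change of 0.15 (95% interval -0.05 to 0.35) did not pass the edgeR test, with an adjusted p of 0.182. *Rnaseh2c*, the gene of the C subunit, was measured at 23.7 and 29.1 CPM in the PD100 libraries and at 27.3 and 27.4 CPM in the PD800 libraries. Both PD800 values lay between the PD100 values, and the log2 fold change was 0.05 (95% interval -0.22 to 0.33) with an edgeR adjusted p of 0.734.

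The subunit transcripts were also set against each other within a library. For each *Rnaseh2b* transcript, counted in TPM, there were 5.27 and 5.13 *Rnaseh2a* transcripts at PD100 and 2.393 and 2.499 at PD800. *Rnaseh2a* made up 61.7% and 65.6% of the TPM sum of the 3 subunit genes at PD100, and 42.2% and 44.6% at PD800. *Rnaseh2a* was the most abundant of the 3 in each PD800 library, though at PD800 the C subunit came close, with *Rnaseh2a* to *Rnaseh2c* TPM ratios of 1.05 and 1.19 against 2.33 and 3.03 at PD100. The ratio of *Rnaseh2b* to *Rnaseh2c* overlapped between groups, at 0.441 and 0.590 against 0.439 and 0.476. For each of the *Rnaseh2a* ratios the exact permutation test (two-sided, n = 2 per group) gave p = 0.333, which is the smallest value that 2 libraries against 2 allow.

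**Figure D1:**
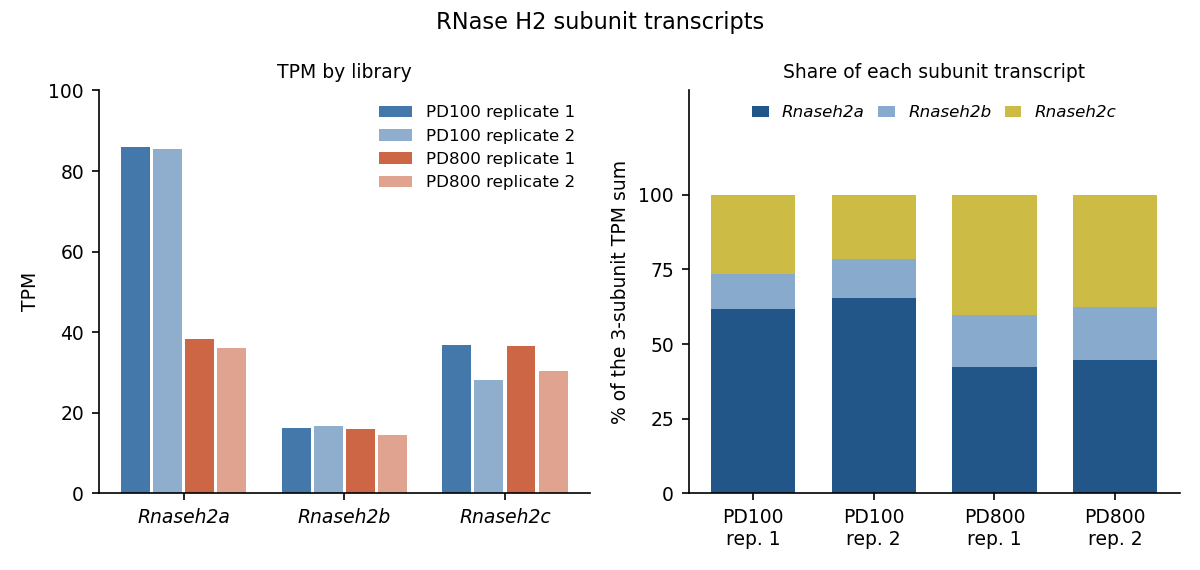
TPM of the 3 RNase H2 subunit genes in each of the 4 libraries (left, bars from 0) and the share of each gene in their TPM sum (right, percent). *Rnaseh2a* stands at 85.9 and 85.5 TPM in the PD100 libraries and at 38.4 and 36.1 TPM in the PD800 libraries, while the bars of *Rnaseh2b* and *Rnaseh2c* keep similar heights.

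*Rnaseh1*, whose product cuts the RNA of longer hybrids in the nucleus and in mitochondria, was measured at 15.9 and 18.3 CPM in the PD100 libraries and at 16.5 and 17.8 CPM in the PD800 libraries. Both PD800 values lay between the PD100 values. The log2 fold change was 0.00 (95% interval -0.25 to 0.26) with an edgeR adjusted p of 0.976. In TPM it was the lowest of the 9 genes in all 4 libraries, from 8.38 to 9.78.

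*Aqr* encodes aquarius, an RNA helicase of the spliceosome that binds introns and unwinds hybrids. It was measured at 172 and 167 CPM at PD100 and at 191 and 185 CPM at PD800. The PD800 libraries lay above the PD100 libraries, by a log2 fold change of 0.15 (95% interval -0.03 to 0.32) that did not pass the edgeR test, with an adjusted p of 0.147.

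*Dhx9*, the gene of RNA helicase A, was measured at 231 and 256 CPM at PD100 and at 230 and 196 CPM at PD800. PD100 replicate 1 and PD800 replicate 1 were nearly equal, so that the gap between the groups was narrow. The log2 fold change of -0.20 (95% interval -0.46 to 0.07) had an edgeR adjusted p of 0.185.

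*Ddx5*, the gene of the DEAD-box helicase p68, was measured at 654 and 749 CPM at PD100 and at 751 and 787 CPM at PD800. PD100 replicate 2 and PD800 replicate 1 were nearly equal, while PD100 replicate 1 was lower and PD800 replicate 2 higher. The log2 fold change of 0.13 (95% interval -0.11 to 0.38) had an edgeR adjusted p of 0.317. In TPM the order was turned, with 189 and 236 at PD100 against 166 and 164 at PD800. The weighted transcript length of *Ddx5* was 2860 and 2377 bases at PD100 and 3072 and 3080 bases at PD800, and 7.22% of all tested genes shifted more in length between the groups. How much of the difference between the scales comes from this length was not tested.

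*Top1*, the gene of DNA topoisomerase I, was measured at 107 and 95.2 CPM at PD100 and at 114 and 106 CPM at PD800. The groups overlapped, and the log2 fold change was 0.13 (95% interval -0.09 to 0.34) with an edgeR adjusted p of 0.291.

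*Senp1* encodes a protease that removes SUMO from proteins and does not itself cut or unwind a hybrid. It was measured at 65.9 and 63.5 CPM at PD100 and at 58.0 and 58.6 CPM at PD800. The replicates lay close together and the groups did not overlap. The log2 fold change was -0.15 (95% interval -0.33 to 0.03), with an edgeR adjusted p of 0.140.

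**Figure D2:**
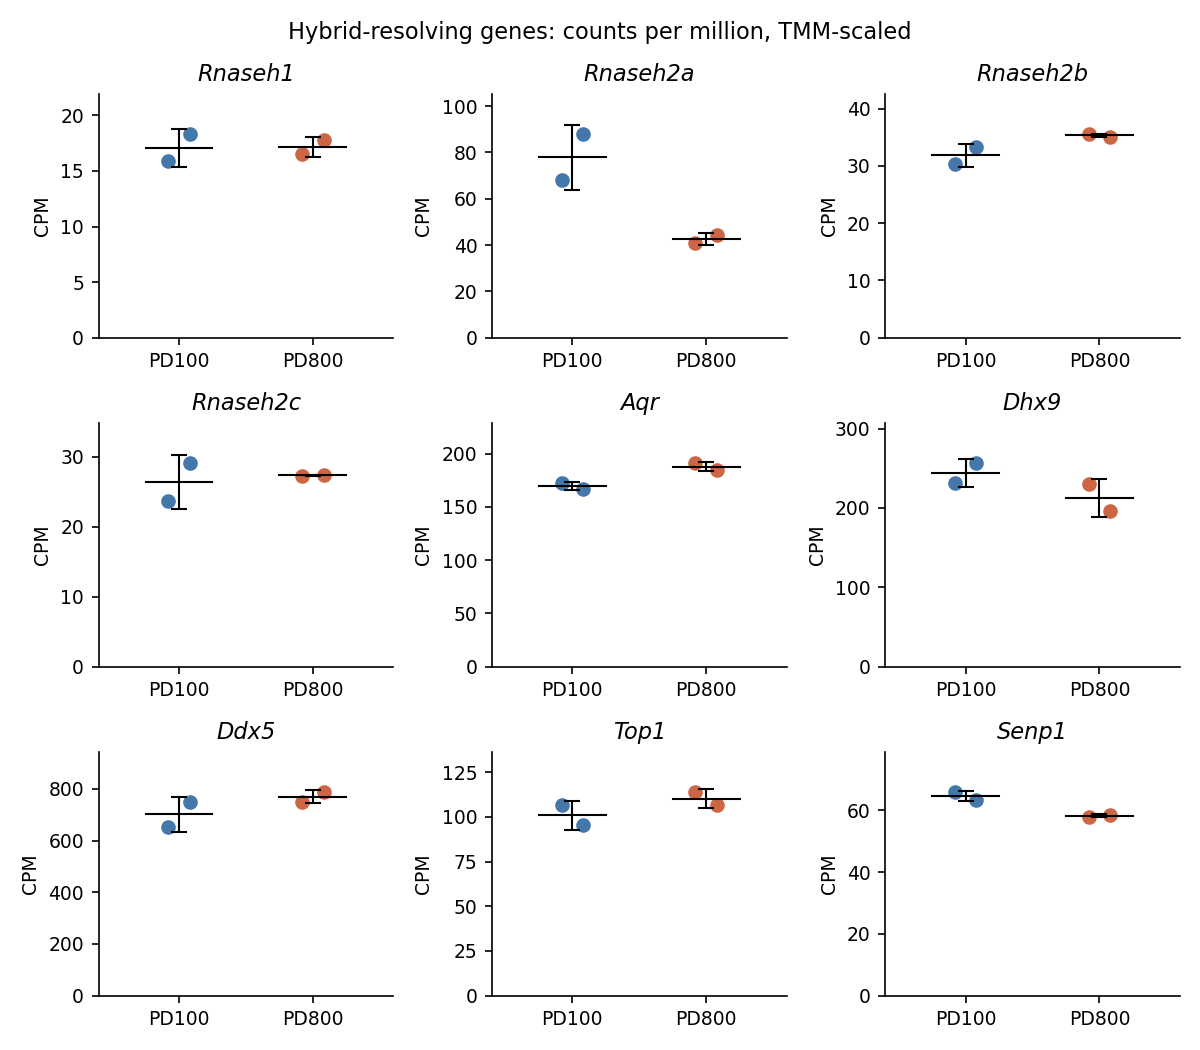
CPM of the 9 genes (each vertical axis starts at 0 and has its own scale), with 1 point per library, the group mean as a horizontal line and the SD of 2 libraries as an error bar. The points of *Rnaseh2a* are at 68.1 and 87.9 CPM for PD100 and at 40.9 and 44.3 CPM for PD800, and in the other panels the 2 groups lie much closer together.

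In CPM the groups did not overlap for 6 of the 9 genes (*Rnaseh2a*, *Rnaseh2b*, *Aqr*, *Dhx9*, *Ddx5* and *Senp1*), and in TPM for 7 of the 9, the same genes with *Rnaseh1*. This was also so for 73.8% of all tested genes in CPM and for 70.3% in TPM. The median log2 fold change was 0.05 over the 9 genes and 0.01 over all tested genes. Of the 9, 6 were above 0 and 3 below in counts (4 and 5 with library totals only). With limma on log2(TPM + 1), 8 of the 9 were below 0, on a scale where the median of all tested genes was itself -0.12, and only *Rnaseh2c* was above. The direction of *Rnaseh1*, *Rnaseh2b*, *Aqr*, *Ddx5* and *Top1* thus turned with the scale, while *Rnaseh2a*, *Dhx9* and *Senp1* were below 0 on both.

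**Figure D3:**
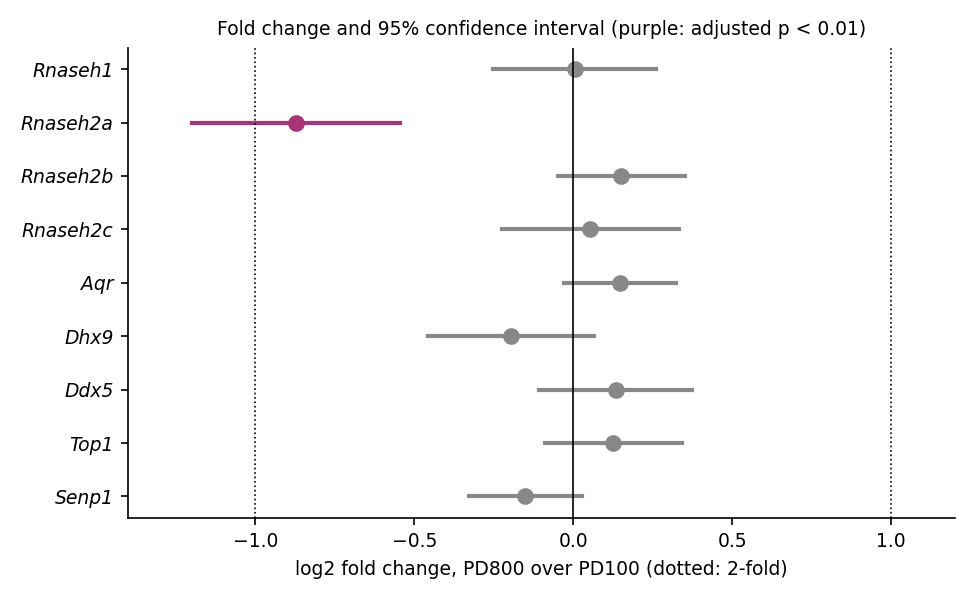
Change of each of the 9 genes from PD100 to PD800 on the log2 scale (points) with the 95% confidence interval of the edgeR fit (lines), the dotted lines marking a 2-fold change. The *Rnaseh2a* interval runs from -1.20 to -0.54, and the other 8 intervals include 0.

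Compared per length, the levels of the 9 genes spanned a wide range. At PD100 the order of mean TPM was *Ddx5* at 213 ± 33.8 (SD, n = 2 here and below), *Rnaseh2a* at 85.7 ± 0.30, *Dhx9* at 58.7 ± 1.46, *Rnaseh2c* at 32.6 ± 6.15, *Aqr* at 30.5 ± 1.13, *Top1* at 22.5 ± 2.83, *Rnaseh2b* at 16.5 ± 0.26, *Senp1* at 12.1 ± 0.25 and *Rnaseh1* at 9.77 ± 0.01. *Rnaseh2c* and *Aqr* did not differ beyond their spread. At PD800 *Dhx9* (44.5 ± 7.47) stood above *Rnaseh2a* (37.3 ± 1.59), and *Rnaseh2a* overlapped with *Rnaseh2c* (33.5 ± 4.31). The order of the other genes was as at PD100, from *Aqr* at 29.0 ± 0.25 down to *Rnaseh1* at 8.43 ± 0.06.

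*Rnaseh2a* lies among genes that were mostly lower in PD800 cells. The 40 tested genes nearest to it, which span 1.49 Mb, changed by a median of -0.59 on the log2 scale. Past the edgeR threshold 22 of them were lower and 1 was higher, and 10 of the 40 lay below the -0.87 of *Rnaseh2a*. Over the 1007 other tested genes of chromosome 8 the median was -0.45, 78.0% were below 0, and 34.2% were lower past the threshold. This was the lowest median of the 20 chromosomes. *Rnaseh2a* was 0.42 below the median of its chromosome and 0.28 below that of its 40 neighbours, on the log2 scale, and 26.0% of the chromosome's genes were lower still. The part of its chromosome in the fall of *Rnaseh2a* was not tested.

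**Figure D4:**
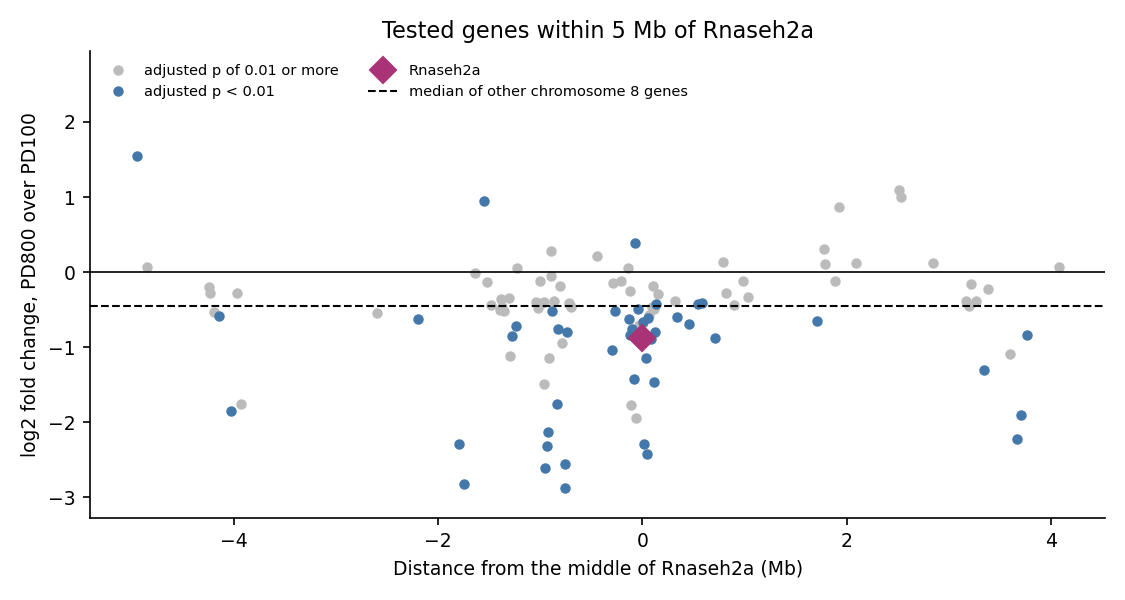
Change from PD100 to PD800, on the log2 scale, of the tested genes within 5 Mb of *Rnaseh2a*, by distance from the middle of that gene in Mb, with *Rnaseh2a* as a diamond and the dashed line at the median of the other chromosome 8 genes (-0.45). Most points lie below 0, and *Rnaseh2a* at -0.87 lies inside their range.

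The next gene toward higher coordinates, *Prdx2* (a peroxiredoxin that reduces hydrogen peroxide), fell by 0.66 on the log2 scale with an edgeR adjusted p of 0.00113. It runs on the opposite strand and shares 177 exon bases with *Rnaseh2a*. Beyond it, *Junb*, a subunit of the AP-1 transcription factor, fell by 2.29 on the log2 scale with an edgeR adjusted p of 6.46e-05. On the other side, *Dnase2a*, a lysosomal DNase gene, fell by 0.49 with an edgeR adjusted p of 0.00961, and *Mast1* (log2 fold change -0.71) did not pass at an adjusted p of 0.125.

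The other subunit genes of RNase H2 lie on chromosomes 19 and 14, whose medians were the next lowest of the 20, and both stood above the medians of their chromosomes. *Rnaseh2c* is on chromosome 19 (5601873 to 5607019), where the median over the other tested genes was -0.38 on the log2 scale, and its 40 nearest genes had a median of -0.40 against 0.05 for the gene itself. *Rnaseh2b* is on chromosome 14 (62292589 to 62372992), where the median was -0.31, and its 40 nearest genes had a median of -0.37 against 0.15. These differences within a chromosome were not tested. *Rnaseh1* on chromosome 12, with a median of 0.36, had 40 nearest genes with a median of -0.03, close to its own 0.00.

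The remaining 5 genes lay close to their neighbourhoods. The medians of the 40 nearest genes were 0.05 for *Aqr* (chromosome 2, 114101170 to 114187024), -0.31 for *Dhx9* (chromosome 1, 153455758 to 153487660), 0.11 for *Ddx5* (chromosome 11, 106780355 to 106789185), 0.02 for *Top1* (chromosome 2, 160645888 to 160722764) and -0.21 for *Senp1* (chromosome 15, 98038744 to 98093744). Each gene's own log2 fold change differed from that median by at most 0.11. The medians over the other tested genes were 0.11 on chromosome 2, -0.12 on chromosome 1, -0.25 on chromosome 11 and -0.22 on chromosome 15. Of the 5, *Ddx5* stood farthest from its chromosome, at 0.13 against -0.25.

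Several of the 9 genes share sequence with others, so that RSEM could divide reads between genes. The strand setting of the counting is not given in the sources used here. The counts of *Rnaseh2c* and *Kat5*, on opposite strands, were fractional and added up to whole numbers in each library. Those of *Senp1* and *Gm26513* did so too. Reads were thus divided between genes of opposite strands, which cannot be told apart on shared exon bases. How this division moved the levels of *Rnaseh2c* and *Senp1* was not tested. *Rnaseh2a* has 10 annotated transcripts of 338 to 2981 bases, of which 2 (Rnaseh2a-202 and Rnaseh2a-209) start inside the first part of *Prdx2* and share 154 and 42 bases with its exons. The processed pseudogene *Gm15703* matches *Rnaseh2a* at 93.8% identity over 901 bases and had 2 to 4 counts per library. The protein-coding gene *Gm49661*, on the same strand, shares 339 exon bases with *Rnaseh2a* at 100% identity and was listed at 0 counts in all 4 libraries. *Rnaseh2b* shares 66 exon bases with *Dleu7* on the opposite strand (4 to 15 counts). *Rnaseh2c* shares 426 exon bases with *Kat5* on the opposite strand (774 to 1073 counts), and *Senp1* shares 18 with *Pfkm* and 462 with the antisense gene *Gm26513* (25.3 to 59.9 counts). *Ddx5* has a processed pseudogene, *Gm12183*, of 98.5% identity over 1848 bases with 175 to 231 counts. The counts of *Rnaseh1*, *Rnaseh2b*, *Aqr*, *Dhx9* and *Top1* were whole numbers, to within 0.005, in all 4 libraries.

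Markers of other cell types moved with the comparison. All 9 of 9 primitive endoderm markers fell in PD800 cells, with a summed level of 241 and 262 TPM at PD100 and 14.7 and 15.0 TPM at PD800. *Col4a1* held most of the PD100 sum, at 150 and 178 TPM, whereas *Gata4* was at 10.5 and 6.54 TPM and *Sox17* at 9.36 and 9.56 TPM. Of 8 feeder fibroblast markers, 7 were tested and 5 fell, from a sum of 16.7 and 16.3 TPM to 2.80 and 2.91 TPM. *Pdgfra*, at 4.83 and 4.24 TPM at PD100 and 0.14 and 0.09 TPM at PD800, is on both of these lists. *Lum* was listed at 0 TPM in 3 of the 4 libraries and *Dcn* in 1 of them. The pluripotency factor *Pou5f1* was at 306 and 296 TPM at PD100 and at 325 and 325 TPM at PD800. Of the 10 embryonic stem cell markers 5 rose and 0 fell. The largest rises were those of *Klf4*, *Nanog* and *Esrrb*, at log2 fold changes of 2.84, 2.32 and 2.06. The list summed to 1551 and 1851 TPM at PD100 and to 2208 and 2249 TPM at PD800. Of these sums, *Dppa5a*, which did not pass, held 682 and 1068 TPM at PD100 and 1051 and 1156 TPM at PD800. Of the 10 proliferation markers 3 rose and 1 fell, and the list summed to 966 and 989 TPM at PD100 and to 852 and 831 TPM at PD800. The 3 that rose, *Mki67*, *Ccna2* and *Ccnb1*, did not pass in limma on log2(TPM + 1), with adjusted p of 0.0116, 0.564 and 0.165. The 1 that fell, *Mcm5*, did pass there (adjusted p of 0.00482). The part of these markers in the lower *Rnaseh2a* level was not tested, and in bulk RNA fewer cells of a type and less RNA per cell cannot be told apart.

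All 68 of 68 other genes of R-loop formation and processing were tested, and the 9 genes were read beside them. In the edgeR test 6 of the 68 rose and 9 fell, which is 22.1% past the threshold, against 28.5% of all tested genes, and their median log2 fold change was -0.06.

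Of 19 other R-loop helicases, 3 rose and 4 fell. *Fancm*, a fork-remodelling translocase of the Fanconi anaemia pathway, rose by a log2 fold change of 0.75 (adjusted p of 0.000528), and *Recql5*, a RecQ helicase, rose by 0.60 (adjusted p of 0.00243). In limma on log2(TPM + 1) neither passed, with adjusted p of 0.0149 and 0.0508. *Ddx21*, a nucleolar helicase of ribosomal RNA synthesis, fell by 1.19 on the log2 scale (adjusted p of 0.000394), and *Wrn*, the Werner syndrome helicase on chromosome 8, fell by 0.76 (adjusted p of 0.000786). The medians over the 40 nearest genes were 0.13 for *Fancm*, 0.29 for *Recql5*, -0.76 for *Ddx21* and -0.66 for *Wrn*. The part of the neighbourhood in these changes was not tested. *Ddx17*, the paralog of *Ddx5*, was at 333 and 330 CPM against 404 and 404 CPM, a log2 fold change of 0.28 whose adjusted p of 0.0245 missed the threshold.

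Of 8 topoisomerase genes and partners, 1 rose and 2 fell. *Tdp1*, which frees DNA ends from a trapped topoisomerase I, rose by a log2 fold change of 0.63 (edgeR adjusted p of 0.00191), but did not pass in limma on log2(TPM + 1), with an adjusted p of 0.0981. *Top1mt*, the mitochondrial paralog of *Top1*, fell by 0.69 on the log2 scale and *Top2b* fell by 0.57, with adjusted p of 0.00533 and 0.00226. The medians over the 40 nearest genes were 0.91 for *Tdp1*, -0.26 for *Top1mt* and -0.30 for *Top2b*. *Top2a* (log2 fold change -0.06) and *Top3b* (0.14) did not pass, and neither did *Top1* itself.

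Of 11 genes of the THO complex and mRNA packaging, 2 rose and 0 fell, with 5 higher and 3 lower at an unadjusted p under 0.05, and 3 higher and 0 lower by DESeq2. *Alyref*, an adaptor of mRNA export, rose from 168 and 185 CPM to 485 and 534 CPM, a log2 fold change of 1.53 with an edgeR adjusted p of 0.000145. It lies 1.37 Mb from the last annotated base of chromosome 11, and the median over its 40 nearest genes was 1.42 on the log2 scale. *Thoc6*, a THO subunit gene, rose by 0.46 with an adjusted p of 0.0056, but did not pass in limma on log2(TPM + 1), with an adjusted p of 0.143.

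Among the 5 intron-binding partners of *Aqr*, 7 structure-specific nucleases and termination factors and 5 other SUMO proteases, 0 passed the edgeR threshold. At an unadjusted p under 0.05 there were 2, 4 and 2 of them, and by DESeq2 0, 1 and 0. Of the 8 genes that act after RNase H2 in ribonucleotide excision, 1 passed: *Pold2*, a subunit gene of DNA polymerase delta, fell by 0.68 on the log2 scale with an edgeR adjusted p of 0.00146.

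Mutations in the 3 RNase H2 subunit genes are a known cause of Aicardi-Goutieres syndrome, and of 5 other genes of that disease 2 fell. *Ifih1*, a sensor of double-stranded RNA, was at 11.9 and 12.3 CPM at PD100 and at 1.502 and 0.965 CPM at PD800, a log2 fold change of -3.28 with an edgeR adjusted p of 0.000132. *Samhd1*, a dNTPase gene, fell by 0.41 on the log2 scale with an adjusted p of 0.00629.

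**Figure D5:**
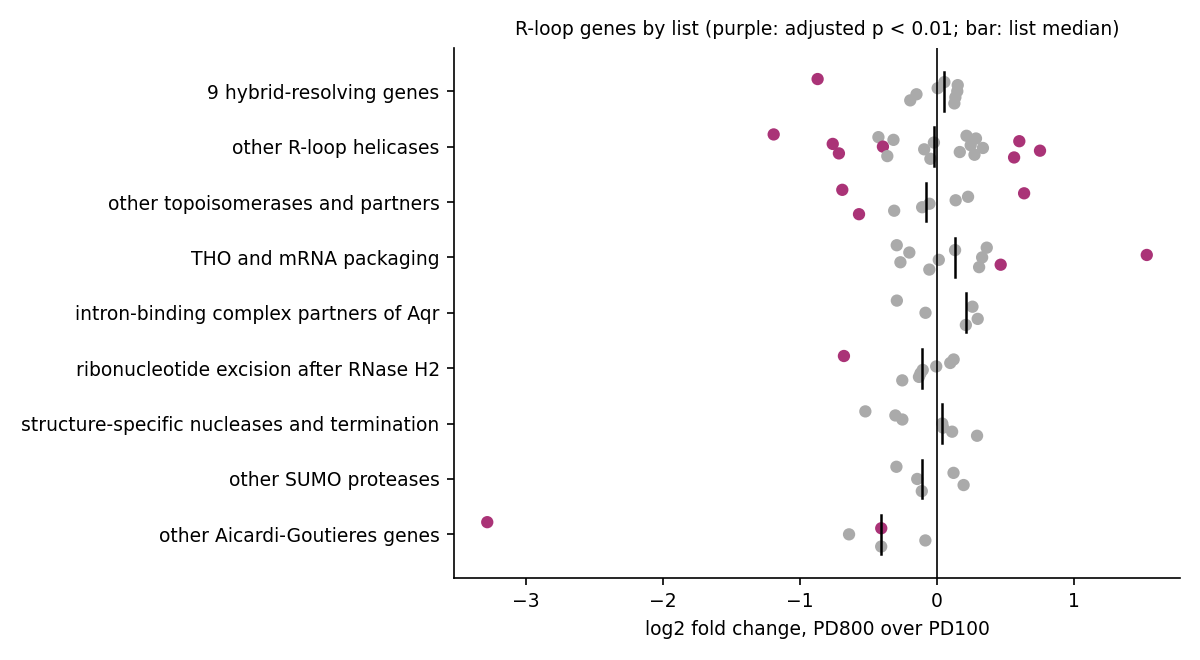
Change from PD100 to PD800, on the log2 scale, of the 9 hybrid-resolving genes and for 8 lists of other R-loop genes, with 1 point per gene, purple where the edgeR adjusted p is under 0.01, and a bar at each median. Most points lie within 0.5 of 0, with *Alyref* at 1.53 and *Ifih1* at -3.28 as the farthest on either side.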

How the data were processed

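Per the labels, RNA libraries were made from DKO741 cells at PD100 and PD800. The paper describes sequencing of mRNA in biological duplicate, while the labels name total RNA. The submitters' processing notes name STAR 2.5.3a, RSEM 1.3.0, DESeq2 1.18.1 and mm10, and the annotation release is not given in the sources used here. Each deposited expected count is an RSEM estimate with no scaling for depth, in which a read pair that fits several genes is shared among them. The deposited TPM values were scaled by RSEM for transcript length, and every library has an equal sum. The FPKM values that the authors deposited, which are scaled for length and depth, were not used. Of 53379 gene identifiers, 53274 were found in GENCODE M21 (GRCm38) without regard to version, including all 9 genes, and gave coordinates and exons. The listed helicase gene *Ddx39a*, so named in RefSeq, is in the files under its older symbol *Ddx39*.

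For the tests the expected counts were rounded. They were fitted in edgeR 4.0.16 (R 4.3.3) with filterByExpr (minimum count of 10), TMM factors and the quasi-likelihood test of PD800 against PD100 with Benjamini-Hochberg adjustment over all 19148 tested genes. CPM values depend on depth and TMM factors (0.960 to 1.05). The procedure was tested on simulated data in which all genes and both groups had the same spread. The real groups differed in spread, so no result here rests on that simulation. Neighbours were the 40 tested genes nearest on the chromosome, and sequence copies were found with blastn 2.17.0 (at least 90% identity over 200 bases).

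The 9 genes and the lists of R-loop and marker genes were chosen with earlier results of these data known. Besides the 9 genes, the text names up to 2 genes per direction and R-loop list with the most extreme log2 fold change past the threshold, and *Ddx17*, *Top2a* and *Top3b* whatever their values. A further gene that this rule names is not reported here. Genes that flank or share sequence with the 9, the markers at 0, and the markers named for their level or change were chosen with their values in view. Tried as alternatives were DESeq2 1.42.0, its size factors in edgeR, upper-quartile factors, library totals only, 2 other filters on low counts, the replicate number as a block, limma 3.58.1 on log2(TPM + 1) and log2(TPM + 0.1), other thresholds, a 5 Mb neighbourhood and each library left out in turn.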

Additional observations from a re-analysis of the deposited data

How the results depend on the processing

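With 2 libraries per group, each p-value leans on a spread pooled over genes, and an exact test of 1 gene cannot go below 0.333. *Rnaseh2a* was below 0 in all 13 alternatives (log2 fold change -1.20 to -0.70, adjusted p at most 0.0204) and past the threshold in 11 of them, and no other of the 9 genes passed in any. With each library left out in turn, its log2 fold change ran from -1.04 to -0.70, and the count of lower genes of the 9 from 0 to 1, the 0 being without PD800 replicate 1 or 2. A fold change over 2 in addition also left 0 in the edgeR fit of all 4 libraries.

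Genes near 0 changed sign. *Rnaseh1* was at -0.01 with DESeq2, with DESeq2's size factors and with at least 10 counts in every library, at -0.11 with library totals only, and between -0.09 and 0.09 with a library left out. *Rnaseh2c* was at -0.06 with library totals only (median over all genes -0.10) and between -0.09 and 0.19 with a library left out. In limma on log2(TPM + 1) and log2(TPM + 0.1) respectively, *Rnaseh1* was at -0.19 and -0.21, *Rnaseh2b* at -0.11 and -0.11, *Aqr* at -0.07 and -0.07, *Ddx5* at -0.35 and -0.35 and *Top1* at -0.10 and -0.11, against medians over all genes of -0.12 and -0.21. On these 2 scales *Dhx9* was at -0.40 and -0.41 and *Senp1* at -0.40 and -0.44, farther below 0 than in the edgeR fit to counts (-0.20 and -0.15). The cause was not tested.

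Of all genes, 2513 were higher and 2943 lower. Higher genes numbered 3991 with no expression filter, which tests more genes, and 712 and 706 in limma on log2(TPM + 1) and log2(TPM + 0.1). With library totals only, 1941 were higher and 3606 lower. With a library left out, 1175 to 3994 were higher and 1478 to 4193 lower. Of the R-loop lists, 6 genes were higher and 9 lower, against 1 higher and 10 lower in limma on log2(TPM + 1). The cause of these shifts was not tested. Within 5 Mb of *Ddx5*, the median log2 fold change was -0.04.

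The labels give both groups replicate numbers 1 and 2 but no shared batch, and the deviations of same-numbered libraries correlated at 0.265. With the replicate number as a block, *Rnaseh2a* was at -0.86, 3854 genes were higher and 4125 lower, and of the R-loop lists 11 were higher and 16 lower. No call among the 9 genes changed under this block.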
